A study of Mus musculus with 8 samples.

Results

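The 40 genes described here encode proteins of DNA replication and of the S phase of the cell cycle: cyclins and E2F factors of the G1/S step, enzymes of deoxynucleotide supply, the proteins that load and start the replicative helicase, polymerases, and factors that rebuild chromatin behind the fork. They were taken by symbol from the gene names of the array, where 52 of 55681 probes carry one of the 40 names. Each gene was represented by its brightest probe among those detected, and 36 of the 40 were detected on enough arrays to be tested, among 25129 genes and unnamed transcripts. The arrays are 1-colour Agilent mouse arrays hybridised with Cy3-labelled total RNA of whole kidneys from CD-1 mice, an outbred stock. The mice of the tacrolimus group were given Tacrolimus at 1 mg/kg/day for 28 days, and those of the control group Physiological serum, with 4 arrays in each group. Tacrolimus inhibits calcineurin, prevents rejection of transplanted organs and is toxic to the kidney. Age, sex and the animal behind each replicate number are not in the labels, and the p-values therefore cover only the spread among these 8 samples, which may be technical.

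Before a cell copies its DNA, the origin recognition complex, Cdc6 and Cdt1 place the MCM helicase on DNA in G1. Cyclin-dependent kinases and the Cdc7-Dbf4 kinase then bring Cdc45 and the GINS complex to the helicase, and polymerases follow. Many of these genes are transcribed by E2F factors once cyclin D and cyclin E kinases have released them from the retinoblastoma protein. In the adult kidney few cells are in cycle, and tubular cells are known to enter it after injury. In RNA of a whole organ, more cells in S phase and more RNA of these genes in each cell cannot be told apart.

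The letters that E2F factors are known to bind can be read in the promoters of several members, and 5 of them are shown so that the letters can be set beside the values of the same genes in what follows. The sequences are the 250 bases before the gene start in the RefSeq table of GRCm38.p6, read 5′ to 3′ on the strand of the gene, with the E2F letters in capitals. Uhrf1, Rfc3 and Cdc6 were chosen by rule, and Mcm5 and Mcm6 were added after their values had been seen, as helicase subunit genes with a larger and a smaller difference.
Uhrf1 (chr17:56304063-56304312, + strand): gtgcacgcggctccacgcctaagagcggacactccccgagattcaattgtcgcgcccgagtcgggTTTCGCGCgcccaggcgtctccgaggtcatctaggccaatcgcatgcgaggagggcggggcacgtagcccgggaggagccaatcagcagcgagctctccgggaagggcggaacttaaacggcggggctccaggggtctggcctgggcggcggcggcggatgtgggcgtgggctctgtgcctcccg
Rfc3 (chr5:151651209-151651458, - strand): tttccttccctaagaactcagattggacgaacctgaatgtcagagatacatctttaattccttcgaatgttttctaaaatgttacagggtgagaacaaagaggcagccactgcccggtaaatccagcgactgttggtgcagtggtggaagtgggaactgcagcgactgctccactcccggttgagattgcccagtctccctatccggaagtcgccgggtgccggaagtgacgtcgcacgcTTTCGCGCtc
Cdc6 (chr11:98907901-98908150, + strand): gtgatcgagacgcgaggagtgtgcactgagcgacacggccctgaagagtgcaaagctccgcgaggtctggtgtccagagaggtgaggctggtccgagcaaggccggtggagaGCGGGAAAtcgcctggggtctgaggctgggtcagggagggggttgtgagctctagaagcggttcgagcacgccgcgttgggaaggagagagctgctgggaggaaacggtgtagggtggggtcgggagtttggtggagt
Mcm5 (chr8:75109259-75109508, + strand): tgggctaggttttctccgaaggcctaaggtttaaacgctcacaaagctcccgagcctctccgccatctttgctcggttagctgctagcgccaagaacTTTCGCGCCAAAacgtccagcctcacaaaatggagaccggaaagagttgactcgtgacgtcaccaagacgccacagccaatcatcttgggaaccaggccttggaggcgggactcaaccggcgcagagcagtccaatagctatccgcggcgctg
Mcm6 (chr1:128359706-128359955, - strand): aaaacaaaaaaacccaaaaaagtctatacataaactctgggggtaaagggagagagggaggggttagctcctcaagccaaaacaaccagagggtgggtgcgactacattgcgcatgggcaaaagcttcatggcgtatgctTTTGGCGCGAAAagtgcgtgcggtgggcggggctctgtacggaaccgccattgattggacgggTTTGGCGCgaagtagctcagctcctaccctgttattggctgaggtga
The words searched on both strands were TTTCCCGC, TTTGGCGC, TTTCGCGC and TTTGCCGC, with overlapping matches counted as 1. In Mcm5 and in the first of the 2 matches of Mcm6, words on the opposite strands overlap. Of the 41 windows that the table holds for 34 members, 9 windows of 9 members held such a word (22.0%), against 611 of all 32851 windows (1.86%). The 9 were Cdc6, Hells, Mcm5, Mcm6, Mcm7, Orc1, Pola1, Rfc3 and Uhrf1, and the members without an entry were Ccnd1, Ccne2, Gins1, Gins2, Mcm4 and Pole. The word CCAAT, a box common in promoters of cell cycle genes, stood in 23 of the 41 windows (56.1%) and in 33.85% of all windows. TTTGAA or TTCGAA, the letters of an element known from genes of mitosis, stood in 8 of the 41 (19.5%) and in 17.15% of all. A word in a window describes the letters and does not show that a factor binds there.

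Well above background were 64.0% to 69.8% of spots, depending on the array, with 0 saturated, and precision is limited by the number of arrays. All 8 arrays were on 1 slide, with the tacrolimus arrays in 1 row and the control arrays in the other, so that slide row and treatment cannot be told apart. Tacrolimus arrays had a mean local background of 19.3 to 20.5 intensity units, and control arrays one of 21.8 to 22.1. The RNA was that of kidney: all 12 proximal tubule markers were detected, and their summed signal, relative to the 75th percentile of the array, was 1929 to 2647 on the tacrolimus arrays and 2203 to 2557 on the control arrays. Each level given here is the log2 of a signal after scaling every array to its own 75th percentile. Each difference is the tacrolimus mean less the control mean of such levels, with the SE that limma gives.

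Most replication genes had a higher mean under tacrolimus, by up to 1.34 log2 units, and none passed the threshold. Of the 36 tested members 0 were called at an adjusted p under 0.05 (limma, Benjamini-Hochberg over all 25129 genes), where 0.227% of all genes were called, 0.187% as higher and 0.0398% as lower. At an unadjusted p under 0.05, 19 members were higher, where 7.04% of all genes were, and 0 were lower, where 8.42% of all genes were. On 15 of the 36, each of the 4 tacrolimus arrays lay above each of the 4 control arrays, which held for 4.35% of all genes tested, and the reverse held for no member, against 5.75% of all genes. The fitted difference was above 0 for 33 of the 36 members, against 39.5% of all genes. The median difference of the members was 0.41, beside -0.054 over all genes tested, and the members ranged from -0.17 for Cdc45 to 1.34 for Uhrf1. In a split made after the values were seen, the 19 members with a mean level below the 75th percentile of the array had a median difference of 0.55, with 13 higher at an unadjusted p under 0.05, where 9.47% of all genes below it were. The 17 members above it had a median difference of 0.22, with 6 higher, where 3.89% of all genes above it were.

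**Figure D1:**
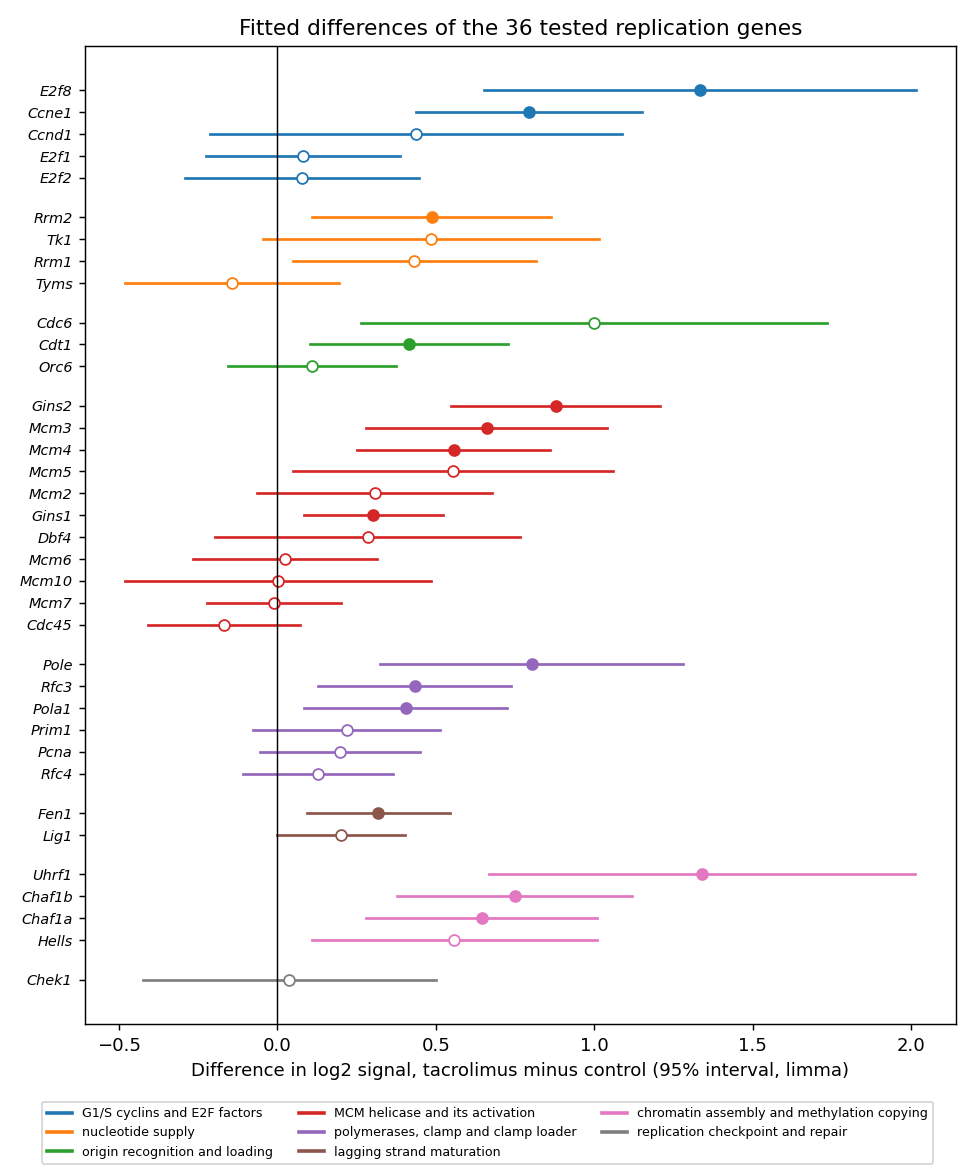
Fitted difference in log2 signal (x axis, tacrolimus minus control) of each of the 36 tested replication genes (rows, grouped and coloured by role), with lines for the 95% interval from limma. Filled points are the 15 genes whose 4 tacrolimus arrays all lay above the 4 control arrays, and the points run from -0.17 for Cdc45 to 1.34 for Uhrf1.

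Among the 5 tested genes of the G1/S step, 2 were higher at an unadjusted p under 0.05 (limma) and 0 were called. Over all genes, 7.04% were higher by that measure. Ccne1 encodes cyclin E1, which activates Cdk2 at the start of S phase, and E2f8 is an atypical E2F that represses E2F targets and is itself an E2F target. For Ccne1 the tacrolimus arrays, in order of replicate, had -1.92, -1.92, -2.09 and -1.49, against -2.45, -2.49, -2.80 and -2.85 on the control arrays. The groups did not overlap, and tacrolimus replicate 4 was the highest. The difference was 0.79 ± 0.16 (adjusted p = 0.0728, limma), a 1.73-fold higher signal. Its probe lies on chromosome 7 from 38882937 to 38882960 on mm9. That placement covers 24 bases of the 60, and a further probe of Ccne1, well above background on 3 of the 8 arrays, differed by 0.94 ± 0.40. E2f8 had -3.64, -3.07, -4.23 and -4.15 on the tacrolimus arrays, against -4.52, -5.08, -5.42 and -5.41 on the control arrays. All 4 tacrolimus arrays were higher, with replicate 2 furthest from the controls, and the difference was 1.33 ± 0.30 (adjusted p = 0.0997, limma). Its probe lies on chromosome 7 from 56121860 to 56121919. With normexp, and in the deposited table, the difference was between 0.49 and 0.68. E2f1, the activator best known for driving entry into S phase, averaged -1.87 ± 0.26 under tacrolimus and -1.95 ± 0.069 in controls (SD, n = 4 each), a difference of 0.082 with a 95% interval of -0.22 to 0.39. E2f2, another activator, differed by 0.077 (-0.29 to 0.45). Ccnd1, encoding cyclin D1, averaged 4.07 ± 0.19 under tacrolimus and 3.63 ± 0.62 in controls, with a 95% interval of the difference of -0.21 to 1.09. The control arrays of Ccnd1 spread from 2.81 to 4.31 and enclosed all 4 tacrolimus arrays. Ccne2, encoding cyclin E2, was not well above background on any of the 8 arrays and was not tested.

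Among the enzymes of deoxynucleotide supply, both subunits of ribonucleotide reductase were higher in mean, and thymidylate synthase was not. Rrm2, the regulatory subunit whose level is known to follow S phase, had 0.90, 0.73, 0.80 and 0.72 on the tacrolimus arrays, against 0.45, -0.21, 0.41 and 0.55 on the control arrays. The groups did not overlap, control replicate 2 lay well below the other controls, and the difference was 0.49 ± 0.17 (adjusted p = 0.231, limma). Without control replicate 2 it was 0.32. Rrm1, the catalytic subunit, had 1.04, 0.83, 0.32 and 0.65 on the tacrolimus arrays, against 0.19, 0.56, 0.12 and 0.24 on the control arrays. Here tacrolimus replicate 3 fell among the controls, and the difference was 0.43 ± 0.17 (adjusted p = 0.282, limma). The probe of Rrm2 is placed on chromosome 12 from 25398824 to 25398883 and that of Rrm1 on chromosome 7 from 109617223 to 109617283. Tk1, the thymidine kinase of the salvage pathway, averaged 1.66 ± 0.44 under tacrolimus and 1.17 ± 0.29 in controls (SD, n = 4 each), with overlapping groups, a difference of 0.48 ± 0.23 and adjusted p = 0.352 (limma). A further probe of Tk1, detected on all 8 arrays, differed by 0.59, and another was well above background on 0 of 8 arrays. Tyms, which makes thymidylate, averaged -2.41 ± 0.16 under tacrolimus and -2.27 ± 0.26 in controls, a difference of -0.14 with an interval of -0.48 to 0.19.

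Of the 4 origin licensing genes, Cdc6 and Cdt1 were higher in mean at an unadjusted p under 0.05 (limma), where 7.04% of all genes were. Cdc6, the ATPase that loads the helicase together with the origin recognition complex, was well above background on all 4 tacrolimus arrays and on 2 of the 4 control arrays, so that its passing the detection filter depended in part on the group where it was higher. It had -5.16, -4.59, -5.62 and -5.07 on the tacrolimus arrays, against -5.58, -6.65, -6.63 and -5.58 on the control arrays. Tacrolimus replicate 3 lay below control replicates 1 and 4, and the difference was 1.00 ± 0.32 (adjusted p = 0.218, limma). With normexp and an offset, and in the deposited table, it was smaller, between 0.24 and 0.37. Cdt1, the partner of Cdc6 in loading, had 1.22, 1.37, 1.34 and 1.31 on the tacrolimus arrays, against 0.82, 1.18, 0.55 and 1.01 on the control arrays. The tacrolimus values were close together and all above the controls, whose spread was wider, and the difference was 0.42 ± 0.14 (adjusted p = 0.222, limma). The probe of Cdc6 is placed on chromosome 11 from 98782986 to 98783045 and that of Cdt1 on chromosome 8 from 125096893 to 125096952. Orc6, a subunit of the origin recognition complex, differed by 0.11 (95% interval -0.15 to 0.38). Orc1, the largest subunit of that complex, was not well above background on any of the 8 arrays and was not tested.

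Gins2 had the lowest p of the members. It encodes a subunit of GINS, the complex that joins Cdc45 and the MCM ring in the active helicase. On the tacrolimus arrays its values were -2.35, -2.27, -2.37 and -2.12, against -2.78, -3.33, -3.39 and -3.14 on the control arrays. The 4 tacrolimus values lay close together, above control replicate 1 and well above the other 3 controls. The difference was 0.88 ± 0.14, or 1.84-fold, at an adjusted p just over the threshold (adjusted p = 0.0552, limma), and its probe lies on chromosome 8 from 123112627 to 123112686. Over 20 other settings and array subsets it was between 0.63 and 1.01, with adjusted p from 0.0266 to 0.168, under the threshold in 7 of the 20. Gins1, another subunit of the complex, averaged -1.44 ± 0.067 under tacrolimus and -1.74 ± 0.14 in controls (SD, n = 4 each), a difference of 0.30 ± 0.10 (adjusted p = 0.212, limma) with no overlap. Cdc45 had the lowest fitted difference of the members over all 8 arrays, next to -0.14 for Tyms. Its arrays read -2.70, -2.61, -2.45 and -2.82 under tacrolimus, against -2.46, -2.38, -2.45 and -2.61 in controls. The groups overlapped, tacrolimus replicate 4 was the lowest, and the difference was -0.17 ± 0.10 (adjusted p = 0.453, limma), for a probe on chromosome 16 from 18807449 to 18807508. It was -0.11 without tacrolimus replicate 4, and -0.079 without tacrolimus replicate 4 and control replicate 2. Dbf4, the regulatory subunit of the Cdc7 kinase, differed by 0.29 (-0.20 to 0.77), and Mcm10, which helps to activate the helicase, by 0.0022 (-0.48 to 0.48). Both probes of Cdc7 were well above background on 1 of 8 arrays each and were not tested.

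The 6 genes of the MCM ring, Mcm2 to Mcm7, encode the subunits of 1 hexameric ring, and their fitted differences ran from -0.0091 for Mcm7 to 0.66 for Mcm3. Mcm4 had 0.98, 1.19, 0.78 and 0.92 on the tacrolimus arrays, against 0.51, 0.56, 0.11 and 0.48 on the control arrays. All tacrolimus arrays were above all controls, control replicate 3 lay below the rest, and the difference was 0.56 ± 0.13 (adjusted p = 0.119, limma), for a probe on chromosome 16 from 15624372 to 15624431. Mcm3 had 0.29, 0.88, 0.62 and 0.46 on the tacrolimus arrays, against 0.12, 0.029, -0.46 and -0.079 on the control arrays. The groups did not overlap, though tacrolimus replicate 1 was close to control replicate 1, and the difference was 0.66 ± 0.17 (adjusted p = 0.132, limma). Mcm5 had -0.71, -0.26, -0.77 and -1.03 under tacrolimus, against -0.95, -1.06, -1.80 and -1.19 in controls, a difference of 0.55 ± 0.22 (adjusted p = 0.291, limma), and here tacrolimus replicate 4 lay among the controls. Mcm2 differed by 0.31 (-0.063 to 0.68), Mcm6 by 0.025 (-0.27 to 0.32) and Mcm7 by -0.0091 (-0.22 to 0.20), with overlapping groups for all 3. Mcm6 and Mcm7 also had the highest levels of the 6 genes. Their means were 3.26 and 1.89 under tacrolimus, and 3.24 and 1.90 in controls. Whether the differences between subunits followed the level of the probe was not tested.

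Whether subunits differed from each other was tested for the 15 pairs, a family chosen after the values had been seen, from the difference of their log2 signals within each array (exact two-sided permutation test, 70 ways of dividing 8 arrays). The difference of Mcm3 exceeded that of Mcm7 by 0.67 and that of Mcm6 by 0.64, and the difference of Mcm4 exceeded that of Mcm7 by 0.57 and that of Mcm6 by 0.53. For these 4 pairs, and for Mcm2 below Mcm4 by 0.25, the exact permutation p was 0.0286, the smallest this design allows. Adjusted over the 15 pairs it was 0.0857, so that none passed. With 5 of the 15 pairs at the smallest p of the design, none could pass, however large its difference, and no conclusion is drawn from it. The difference of Mcm5 exceeded that of Mcm7 by 0.56 and that of Mcm6 by 0.53, with overlapping groups (exact permutation p = 0.0571 and 0.0857). Mcm4 and Mcm5 differed from each other by 0.0016 and Mcm6 and Mcm7 by 0.034 in their differences (exact permutation p = 1.00 and 0.771). E2F letters stand in the windows of Mcm5 and Mcm6 shown above and in one of Mcm7, and not in those of Mcm2 and Mcm3.

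**Figure D2:**
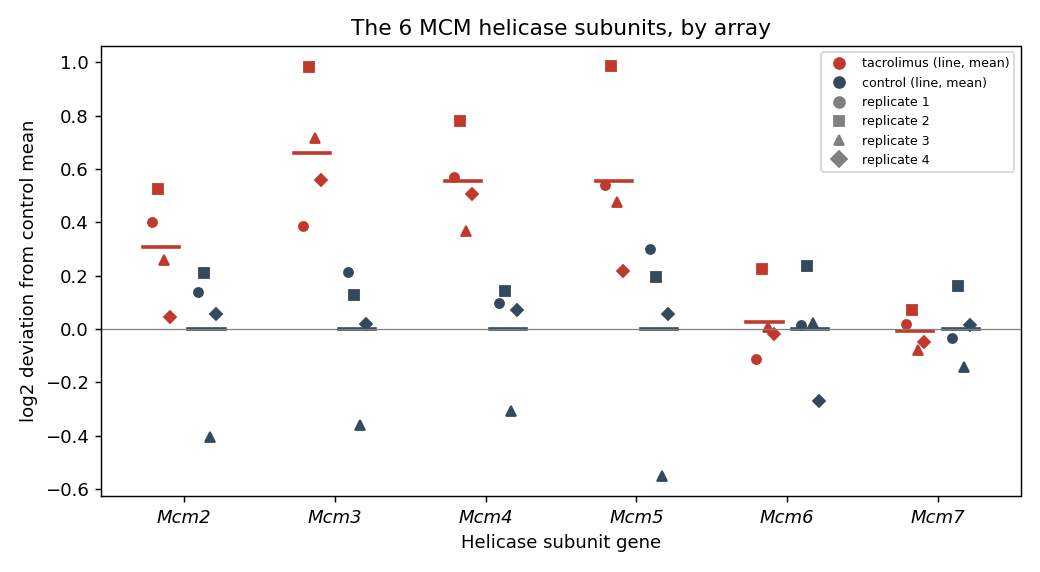
Log2 deviation of each array from the control mean (y axis) for the 6 MCM subunit genes (x axis), with tacrolimus arrays in red left of control arrays in dark blue, marker shapes for replicates and short lines for group means. Tacrolimus means lie at 0.66, 0.56 and 0.55 for Mcm3, Mcm4 and Mcm5, and at 0.025 and -0.0091 for Mcm6 and Mcm7.

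A pair of probes measured Mcm3 at nearly the same place, chromosome 1 from 20793119 to 20793195 on mm9, and they differ in 1 letter of the 43 they share. These 26 bases of each show the place, with the differing letter in capitals.
Mcm3 probe used: agctttctttgcGattagactagtat
Mcm3 further probe: agctttctttgcAattagactagtat
Counted from 1 at the 5′ end of the probe used, the substitution is G14A. Both probes were well above background on all 8 arrays, and their differences, 0.66 for the probe used and 0.80 for the further one, had the same direction.

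Among polymerases and clamp genes, Pole had the largest difference. Pole encodes the catalytic subunit of polymerase epsilon, which copies the leading strand. Its values were -1.57, -0.98, -1.66 and -1.58 on the tacrolimus arrays, against -1.81, -2.29, -2.66 and -2.23 on the control arrays. Tacrolimus replicate 2 stood above the other 3, which lay close to control replicate 1 and still above it, and the difference was 0.80 ± 0.21 (adjusted p = 0.143, limma), for a probe on chromosome 5 from 110766375 to 110766434. Another probe of Pole, detected on all 8 arrays, differed by 0.52. Rfc3, a subunit of the clamp loader, had -2.33, -2.16, -2.15 and -2.06 on the tacrolimus arrays, against -2.66, -2.46, -2.92 and -2.38 on the control arrays. The groups were separated by a small gap, and the difference was 0.43 ± 0.13 (adjusted p = 0.199, limma). Its probe lies on chromosome 5 from 152448247 to 152450045, a stretch longer than the probe itself. Pola1, the catalytic subunit of polymerase alpha, differed by 0.40 ± 0.14 (adjusted p = 0.238, limma) with no overlap. For Prim1, the primase subunit, the difference was 0.22 (-0.076 to 0.51), and for Rfc4, of the clamp loader, 0.13 (-0.11 to 0.36). Pcna, the sliding clamp, averaged 3.59 ± 0.15 under tacrolimus and 3.39 ± 0.14 in controls (SD, n = 4 each), a difference of 0.20 with an interval of -0.055 to 0.45 and overlapping groups.

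Both genes that finish the lagging strand were slightly higher in mean. Fen1, the flap endonuclease, had 1.12, 1.16, 1.23 and 1.35 on the tacrolimus arrays, against 0.73, 1.04, 0.87 and 0.94 on the control arrays. All tacrolimus arrays were above all controls, by a small margin over control replicate 2, and the difference was 0.32 ± 0.10 (adjusted p = 0.204, limma), for a probe on chromosome 19 from 10273675 to 10273734. Lig1, the ligase that joins Okazaki fragments, differed by 0.20 ± 0.088 (adjusted p = 0.324, limma), with tacrolimus replicate 1 below control replicate 2.

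The 4 genes that copy chromatin and methylation behind the fork were all higher at an unadjusted p under 0.05 (limma). Of all genes tested, 7.04% were. Uhrf1 brings the maintenance methyltransferase to newly copied DNA and had the largest difference of the members. It had -1.15, -0.36, -1.11 and -1.30 on the tacrolimus arrays, against -1.75, -2.09, -2.97 and -2.48 on the control arrays. Tacrolimus replicate 2 was the highest and control replicate 3 the lowest, the groups did not overlap, and the difference was 1.34 ± 0.29, or 2.53-fold (adjusted p = 0.0954, limma). Its probe lies on chromosome 17 from 56462770 to 56462829. A further probe of Uhrf1, well above background on 2 of the 8 arrays, both of the tacrolimus group, differed by 1.62 ± 0.80. On that probe tacrolimus replicates 3 and 4 had -8.28 and -8.18, within the range of the control arrays, -8.64 to -8.14. Chaf1b and Chaf1a encode subunits of chromatin assembly factor 1, which deposits histones on new DNA. For Chaf1b the tacrolimus arrays read -0.40, 0.12, -0.35 and -0.22, against -0.67, -1.02, -1.27 and -0.88 on the control arrays. The groups did not overlap, and the difference was 0.75 ± 0.16 (adjusted p = 0.0942, limma), for a probe on chromosome 16 from 93906219 to 93906278. A further probe of Chaf1b detected on all 8 arrays differed by 0.96, and Chaf1a differed by 0.64 ± 0.16 (adjusted p = 0.126, limma) with no overlap. Hells, a chromatin remodeller needed for DNA methylation, differed by 0.56 ± 0.20 (adjusted p = 0.247, limma), and tacrolimus replicate 3 lay among its controls.

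Of the checkpoint genes, Chek1 encodes the kinase that halts the cycle when forks stall. Its arrays read -4.46, -4.62, -4.25 and -5.21 under tacrolimus, against -4.57, -4.86, -4.48 and -4.78 in controls. All 4 control arrays lay within the range of the tacrolimus arrays, tacrolimus replicate 4 was the lowest array, and the difference was 0.038 ± 0.20 (adjusted p = 0.945, limma), for a probe on chromosome 9 from 36516068 to 36516127. The sign of this difference turned under 5 of 20 other settings and array subsets. Brca1, which acts in repair by homologous recombination, was not well above background on any of the 8 arrays and was not tested.

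**Figure D3:**
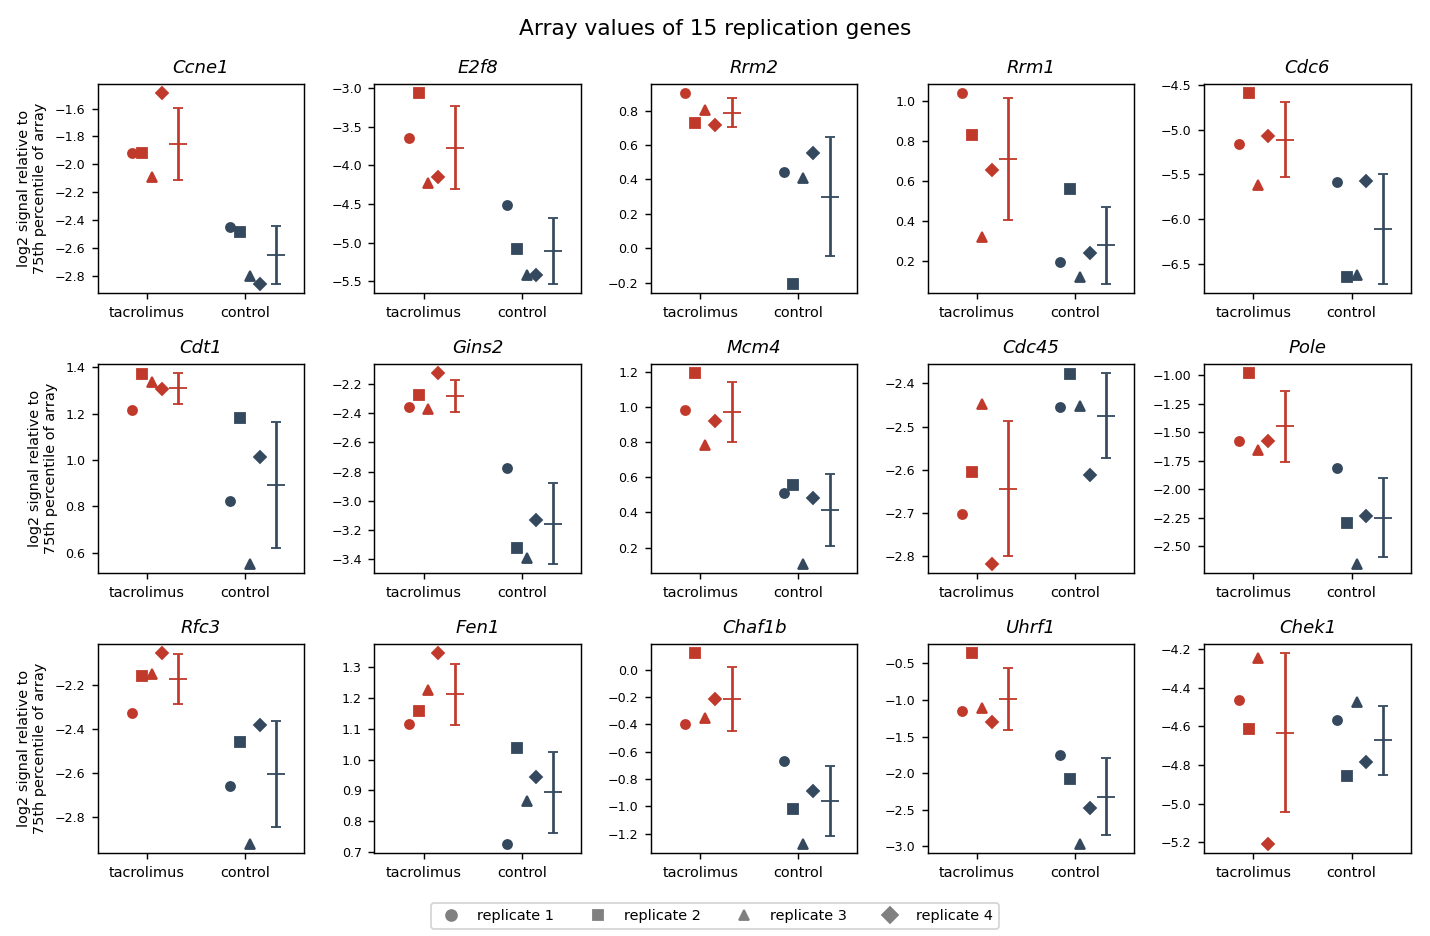
Log2 signal relative to the 75th percentile of the array (y axis, own scale for each gene) of 15 replication genes, for 4 tacrolimus arrays (red, left) and 4 control arrays (dark blue, right), with marker shapes for replicates and bars for the mean and SD. Gins2, Ccne1, E2f8, Uhrf1 and Chaf1b show no overlap between groups, and Cdc45, Rrm1, Cdc6 and Chek1 do.

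The arrays of a group were not alike. Tacrolimus replicate 2 was the highest of all 8 arrays in 19 of the 36 members, and control replicate 3 was the lowest in 23. The mean deviation of the 36 members from their control means was 0.36, 0.60, 0.35 and 0.35 on tacrolimus replicates 1 to 4, against 0.16, 0.059, -0.22 and -0.003 on control replicates 1 to 4. Each tacrolimus array was above each control array in this mean. Leaving out tacrolimus replicate 2, 16 members were higher at an unadjusted p under 0.05 with a median difference of 0.31 (limma). Leaving out control replicate 3, 15 were, also with a median of 0.31. The median over all genes tested was -0.040 and -0.047 in these fits, and the share of all genes higher was not counted for them. The chromatin genes had the largest deviations of the role groups, 0.67, 1.20, 0.63 and 0.80 on the tacrolimus arrays, against 0.30, 0.024, -0.36 and 0.038 on the control arrays. For the 11 helicase genes they were 0.23, 0.49, 0.31 and 0.21 on the tacrolimus arrays, against 0.17, 0.13, -0.25 and -0.054 on the control arrays, where control replicates 1 and 2 came close to tacrolimus replicates 1 and 4.

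**Figure D4:**
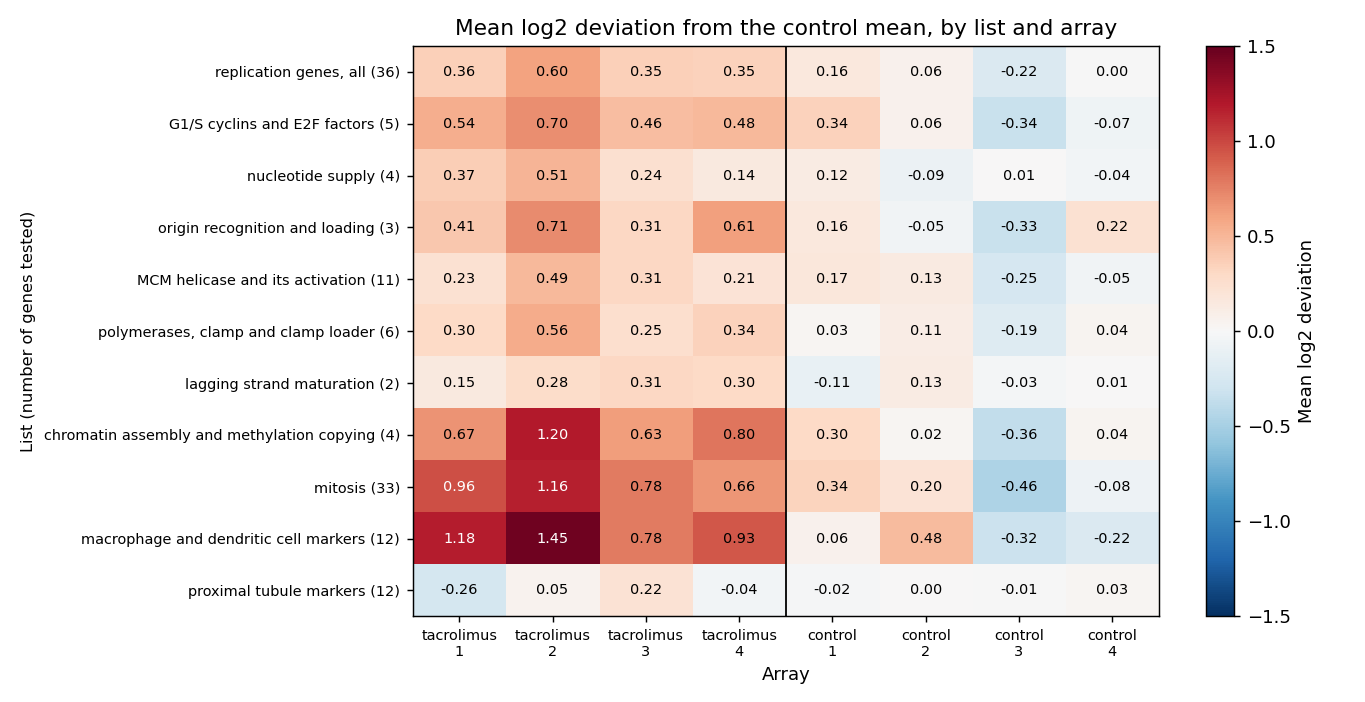
Mean log2 deviation from the control mean (colour and printed value) for lists of genes (rows, with the number tested) on each array (columns, tacrolimus left of control). For all replication genes the tacrolimus arrays lie between 0.35 and 0.60 and the control arrays between -0.22 and 0.16. The mitosis row runs in a similar order of arrays with larger values. The macrophage row is also highest on tacrolimus replicate 2, at 1.45, and lowest on control replicate 3, at -0.32.

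Genes of the same pathways outside the 40 were read from 5 further lists. In a list of 38 mitosis genes, of which 33 were tested, 2 were called higher, 30 were higher and 0 lower by unadjusted p (under 0.05), and the median difference was 0.91. The 2 called genes were Cdca3, which triggers mitotic entry, with -1.03, -0.97, -1.20 and -1.16 on the tacrolimus arrays, against -1.95, -1.78, -2.18 and -2.08 on the control arrays (adjusted p = 0.0302, limma), and Birc5, encoding survivin, at a difference of 1.25 ± 0.18 (adjusted p = 0.0483, limma). Among 44 tested genes of other replication machinery, 0 were called, 10 were higher and 2 lower by unadjusted p (under 0.05), and the median was 0.11. Chtf18, of the alternative clamp loader that acts in cohesion, differed by 0.93 ± 0.19 and Asf1b, a histone chaperone, by 1.10 ± 0.25 (adjusted p = 0.0808 and 0.105, limma).

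The other 3 lists hold repair, nucleotide and G1/S control genes, to be read beside the same shares of 7.04% higher and 8.42% lower. Of 25 tested genes of other fork checkpoint and repair functions, 0 were called, 8 were higher and 2 lower by unadjusted p (under 0.05), with a median of 0.10. Brca2, of homologous recombination, differed by 0.59 ± 0.14 (adjusted p = 0.109, limma). Of 22 genes of other nucleotide synthesis and salvage, 0 were called, 3 were higher and 4 lower, with a median of -0.032. Paics, of purine synthesis, was lower in mean, with 4.03, 4.05, 3.96 and 3.93 on the tacrolimus arrays, against 4.41, 4.35, 4.50 and 4.32 on the control arrays (adjusted p = 0.0795, limma), and Dck, deoxycytidine kinase, differed by 0.34 ± 0.084 (adjusted p = 0.123, limma). Of 31 tested genes of G1/S control outside the members, which include the retinoblastoma family and the CDK inhibitors, 0 were called. At an unadjusted p under 0.05 (limma), 0 were higher, where 7.04% of all genes were, and 4 were lower, where 8.42% of all genes were. The median was -0.032, beside -0.054 over all genes tested. The lowest p in that list belonged to E2f5, a factor that acts mainly as a repressor, at -0.31 ± 0.09, and Cdc25a, the phosphatase that activates Cdk2, at -0.36 ± 0.12 (adjusted p = 0.176 and 0.226, limma).

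**Figure D5:**
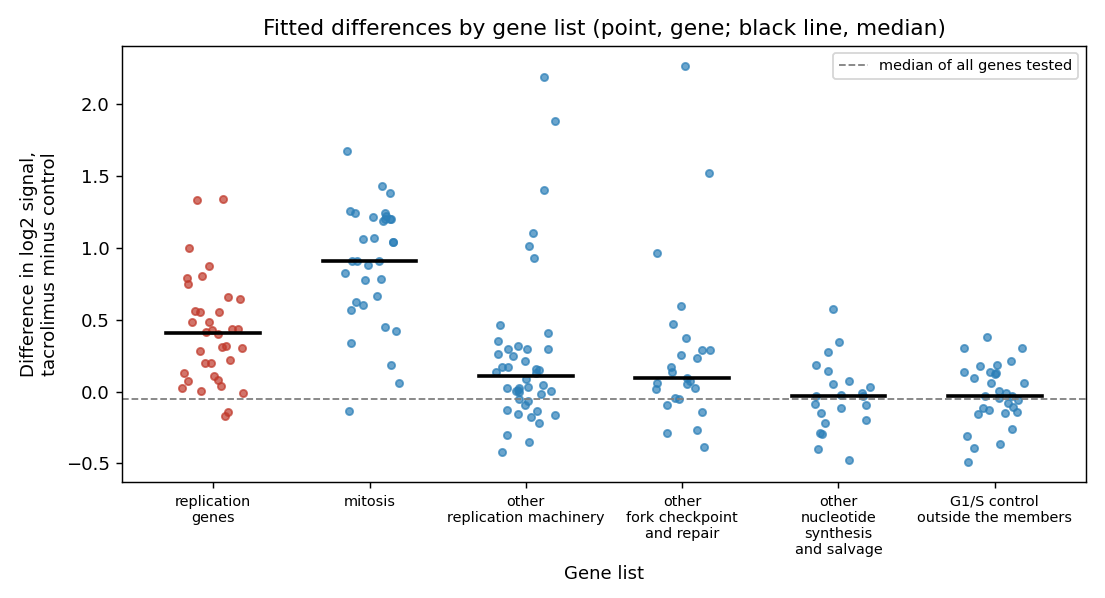
Fitted difference in log2 signal (y axis, tacrolimus minus control) of each tested gene (points) in the replication genes and 5 further lists (x axis), with black lines for medians and a dashed line for the median of all genes tested. The median is 0.41 for the replication genes, 0.91 for mitosis, and between -0.032 and 0.11 for the other 4 lists.

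Markers of macrophages and of fibroblasts also had higher summed signals on the tacrolimus arrays. Of 12 tested macrophage and dendritic cell markers 10 were higher at an unadjusted p under 0.05, and their summed signal was 40.8 to 53.3 on the tacrolimus arrays and 31.4 to 40.7 on the control arrays, with Cd163 detected on 0 of 8 arrays. For 8 fibroblast and pericyte markers, 6 were higher at an unadjusted p under 0.05 and 1 was called (limma), and the sum was 45.1 to 71.5 on the tacrolimus arrays and 29.9 to 33.3 on the control arrays. Of 11 T and B cell markers 3 were higher, and the sums overlapped, at 7.07 to 10.53 on the tacrolimus arrays and 8.60 to 11.7 on the control arrays. Of 6 tested adipocyte markers 5 were higher at an unadjusted p under 0.05 and 0 were called (limma), with a median difference of 3.40. Their mean log2 deviation from the control mean was 2.93, 2.09, 2.20 and 5.38 on the tacrolimus arrays, against -0.47, 2.19, -0.84 and -0.88 on the control arrays, so that control replicate 2 lay within the tacrolimus range. The 6 markers, without Lep, summed to 10.96 to 45.0 on the tacrolimus arrays and 10.6 to 14.8 on the control arrays. Podocyte and endothelial markers summed to 33.8 to 42.6 on the tacrolimus arrays and 40.96 to 43.8 on the control arrays. Distal nephron markers, of which 2 of 9 were higher at an unadjusted p under 0.05, summed to 230.4 to 305.0 on the tacrolimus arrays and 198.0 to 306.4 on the control arrays. Of 5 tested urothelium markers 0 were higher or lower at an unadjusted p under 0.05 (limma). Urothelium sums were 9.78 to 16.95 on the tacrolimus arrays and 10.6 to 11.3 on the control arrays. Of 4 tested erythroid markers 0 were higher or lower at an unadjusted p under 0.05 (limma), with a median difference of -0.54 and sums of 58.5 to 74.4 on the tacrolimus arrays and 54.7 to 142.4 on the control arrays. The part of other cells in the replication gene values was not tested. The 2 arrays with the highest mean log2 level of adipocyte markers in their groups were tacrolimus replicate 4 and control replicate 2. Without them, 20 of the 36 members were higher at an unadjusted p under 0.05 and the median difference was 0.43 (limma). The share of all genes higher was not counted for this fit. Leaving these arrays out did not even out the adipocyte markers. The remaining tacrolimus arrays had 2.93, 2.09 and 2.20, against -0.47, -0.84 and -0.88 on the remaining control arrays.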

How the data were processed

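Total RNA of whole kidneys, extracted with a miRNeasy kit per the labels, was hybridised to 8 1-colour arrays. Spot intensity values were deposited by the authors as Agilent Feature Extraction 10.7.3.1 files, per the file headers, with a processed intensity after spatial and multiplicative detrending within an array (local background subtraction off). The deposited log2 table matched raw median intensity after quantile normalization and log2, with no background taken off (largest gap 5e-09); the submitters' processing notes name limma, with settings not given in the sources used here.

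Here the processed intensity was log2-transformed and each array's 75th percentile over 59305 non-control spots was subtracted. Outlier spots (147 to 194 per array) were left out and spots of a probe averaged. Probes well above background on at least 4 of 8 arrays were kept, and the brightest represented its gene. Current symbols came through accessions from RefSeq GRCm38.p6 (28026 probes matched, 1651 renamed). The comparison used limma 3.58.1 under R 4.3.3 with treatment as its only term (lmFit, eBayes, two-sided), and a gene was called where p, adjusted by Benjamini-Hochberg over 25129 genes, was under 0.05. The fit was tested on simulated arrays, drawn gene by gene from the control means and the spreads within groups. It called 63% of 100 genes changed by 1 log2 unit and 16% of 100 genes changed by 0.5. Of its 83 calls, 4 were unchanged genes. Shifts of an array that many genes share were not simulated, so that these shares may not hold for the real arrays.

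The members and all gene lists were chosen with earlier results of these data known, so that no list was tested as a set. Values on every array are given for called members, the 2 members with the lowest p in each role group (1 in groups of 2), and those with the largest and smallest difference; 2 genes with the lowest p, and any called, are named from each further list, except 1 gene that is not reported here. Mcm3, Mcm5, E2f7 and Shmt1 were named after their values were seen. Alternatives were other normalizations, background corrections, filters, probe summaries and variance models, weights for arrays, a block for replicate number, and arrays left out. Exon annotation of mm9 was not used here.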

Additional observations from a re-analysis of the deposited data

Results flagged for a closer look

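Within a group of 4 arrays, 1 array stood far from the other 3 (gap over range above Dixon's critical value) for 4 of the 72 combinations of member and group, where chance flags about 1 in 20. In Pole, tacrolimus replicate 2 was high at -0.98, and the other tacrolimus arrays lay between -1.66 and -1.57. In Gins1, tacrolimus replicate 1 was low at -1.54, and the others lay between -1.41 and -1.39. In Mcm4, control replicate 3 was low at 0.11, and the others lay between 0.48 and 0.56. In Lig1, control replicate 2 was high at 1.27, and the others lay between 1.11 and 1.13.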

How the results depend on the processing

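Over 20 alternatives, between 15 and 21 members were higher at an unadjusted p under 0.05 (limma) and between 13 and 21 had no overlap. Leaving out single arrays gave 15 to 21 and 15 to 19. The 21 with no overlap came without tacrolimus replicate 4 and control replicate 2, and groups separate more easily when arrays are left out. Shares over all genes were counted for the main fit only, so that these counts have none beside them. The 0 calls among members became 3 with normexp and the 75th percentile (Ccne1, Gins2, Uhrf1), 2 with array weights (Ccne1, Gins2), and 1, always Gins2, with normexp and quantile normalization, the deposited table, a filter on all 8 arrays, or an intensity trend with robust estimation; leaving out single arrays gave 0 to 1, the 1 being Gins2 without control replicate 1. The median member difference was 0.28 with normexp and the 75th percentile and 0.31 to 0.41 without single arrays. Over all genes, 57 calls became 286 and 132 with normexp (75th percentile and quantile), 181 with the deposited table, 32 with no filter, 151 with a filter on all 8 arrays, 221 with the trend, 309 with array weights, 8 without tacrolimus replicate 4 and control replicate 2, and 7 to 56 without single arrays, lowest without control replicate 2. The cause was not tested. Chek1 turned to -0.020 with quantile normalization, -0.014 with the array median, -0.024 without control replicate 2, and -0.019 and -0.091 without tacrolimus replicates 1 and 3; over all single arrays left out it ran from -0.091 to 0.23, highest without tacrolimus replicate 4. With the replicate number as a block, 0 members and 103 genes were called. In that fit 20 members were higher at an unadjusted p under 0.05 (limma). After each group's mean was taken off each gene, same-numbered arrays correlated at 0.02 to 0.16. The same-numbered control array was the best match of tacrolimus replicates 1, 3 and 4, and not of replicate 2. The labels give these arrays only a shared number.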

Other observations

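The atypical repressors E2f7 and E2f8, named together after their values were seen, differed in opposite directions. E2f7 had -2.38, -2.36, -2.54 and -2.49 on the tacrolimus arrays, against -2.04, -2.25, -2.11 and -2.34 on the control arrays, a difference of -0.26 ± 0.10 (adjusted p = 0.267, limma), beside 1.33 ± 0.30 for E2f8. Neither passed the threshold, and the difference between them was not tested. Shmt1, which supplies one-carbon units for thymidylate, differed by -0.47 ± 0.15 (adjusted p = 0.204, limma), in the same direction as Tyms.

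Of the 31 tested members with a promoter window, the 8 with E2F letters had a median difference of 0.49, from -0.0091 to 1.34, and the 23 without had a median of 0.29, from -0.17 to 1.33. The ranges overlapped almost wholly, and these values are a description.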
